A study of Mus musculus with 8 samples.

Results

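The genes described here take up glucose, break it down to pyruvate and lactate, pass pyruvate to the mitochondria, or store and release glucose as glycogen. The list names 35 of them, chosen by gene symbol and role, though with earlier results of these data known. A gene entered with the probe set that the array annotation assigns to it alone, and with the one of highest mean signal where there were several. This gave 31 genes, out of 18782 genes with a probe set of their own on the array. Gpi1, Pfkfb1 and Eno1 were not analysed here, and the 2 probe sets of Pdha1 were left out because the annotation shares them with Map3k15.

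The tissue was thoracic perivascular adipose tissue, the fat around the thoracic aorta, from male mice of 17 to 22 weeks. One group of 4 samples carried the genotype RictoraP2KO and the other group of 4, the controls, the genotype Rictorfl/fl, that is, Rictor alleles flanked by recombination sites. The deletion took its name from the promoter of aP2 (Fabp4), which drives expression in fat cells, and the series title places the loss in brain and fat. Both groups went without food overnight and were killed at 9 in the morning, so all values come from fasted tissue. The labels do not say whether each sample was 1 mouse, so a p-value here speaks only of the spread among the samples, which may be technical. The question was whether loss of Rictor, the subunit that defines mTOR complex 2, alters expression in this fat.

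Glucose enters a fat cell through the carriers GLUT1 and GLUT4. Insulin, acting through mTOR complex 2 and the kinase Akt, inactivates the brake AS160 (Tbc1d4) and brings GLUT4 to the surface. Hexokinase traps the sugar, phosphofructokinase sets the pace of glycolysis, pyruvate kinase ends it, and lactate dehydrogenase or the pyruvate dehydrogenase complex decides where pyruvate goes. Several steps are served by isoforms from separate genes, with some typical of muscle and others of liver or brain. In fasting, pyruvate dehydrogenase kinases inhibit the pyruvate dehydrogenase complex inside the mitochondria. Perivascular fat of the mouse thorax resembles brown fat, a tissue known for a large capacity to take up glucose.

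Values are log2 RMA signals from 1 array per sample, on which 0.1 is a small difference and 1 a doubling. Differences are RictoraP2KO minus control with their standard error (SE), and a gene passed when its limma p, adjusted over all 28371 probe sets, was under 0.05. In bulk tissue, less RNA per cell and fewer cells of a type cannot be told apart. The Rictor signal ran from 6.60 to 6.80 on the arrays labelled RictoraP2KO and from 6.49 to 6.61 on the control arrays, a difference of 0.14 (SE 0.0632; limma adjusted p = 0.685). It was therefore not lower under the label of the knockout, and where its probes lie relative to the deleted part was not examined, so directions rest on the labels. Fat markers were present on all arrays, with Ucp1 between 11.32 and 12.01 and Fabp4 between 11.59 and 11.79. Some arrays also carried signal of other tissues. The mean of 23 skeletal muscle markers stood 1.02 above the gene means on RictoraP2KO replicate 2 and between -0.27 and -0.04 on the other arrays. The mean of 12 lung epithelial markers stood at 2.40 on control replicate 2, and that of 14 neuron markers at 1.15 on control replicate 3. Differences that moved by over 0.1 when these 3 arrays were left out are also given without them.

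None of the 31 genes differed between the groups by the test. Their limma adjusted p ran from 0.655 to 0.999, and over the whole array 0.00352% of probe sets passed. Differences were small and mostly on one side of 0. A total of 25 genes lay below 0 and 6 above, with a median of -0.06, where 51.3% of all probe sets lay below 0 with a median of -0.003. At an unadjusted p under 0.05 there were 2 genes, Pkm and Pfkm, both lower in the arrays labelled RictoraP2KO, against 3.42% of all probe sets in that direction. No gene of the list was higher at that level, against 3.85% of all probe sets. In no gene did the 2 groups separate without overlap, where 2.17% of probe sets separated with RictoraP2KO lower and 2.08% with it higher. By step, 1 of 3 genes lay below 0 in glucose uptake, 7 of 9 in upper glycolysis, 5 of 5 in lower glycolysis, 2 of 2 for lactate dehydrogenase, 5 of 6 for the pyruvate dehydrogenase complex and its kinases, and 5 of 6 for glycogen. The mean over the 31 genes ran from -0.10 to -0.02 on the RictoraP2KO arrays and from -0.04 to 0.09 on the control arrays. Control replicate 3, at -0.04, lay within the range of the RictoraP2KO arrays.

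**Figure D1:**
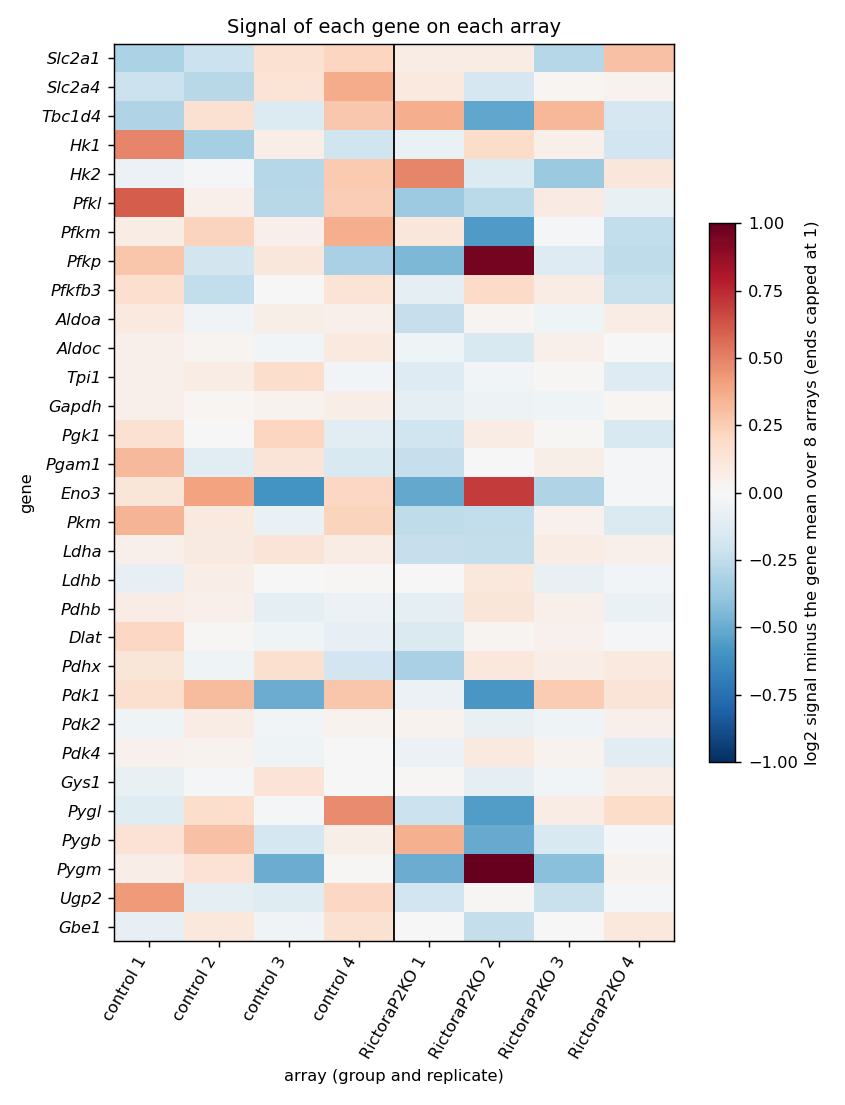
Log2 signal of each of the 31 genes on each of the 8 arrays, minus the mean of that gene over the arrays; colours are capped at 1 in either direction. Single arrays stand out for single genes, such as RictoraP2KO replicate 2 for Pygm and Pfkp, and in no gene do the groups separate without overlap.

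The lean below 0 depended in part on single arrays. With 1 array left out, 21 to 25 of the 31 genes lay below 0. The lowest count, 21, with a list median of -0.05, was without RictoraP2KO replicate 1, against 50.9% of all probe sets. That array had the lowest mean of the brown fat markers, -0.49, and of the cardiac muscle markers, -0.94; the part of these in the result was not tested. Its mean of the fat cell markers, 0.22, was also the highest, but it rested on Lep, the gene of leptin, which read 5.81 there and between 2.74 and 3.76 elsewhere. The mean of the other 10 fat cell markers was 0.01 on that array. Without the 3 arrays with signal of another tissue, which leaves 3 RictoraP2KO and 2 control arrays, 27 of the 31 genes lay below 0, against 50.7% of all probe sets. In that fit 4 genes had an unadjusted p under 0.05, all lower, against 2.47% of probe sets in that direction. They were Pfkl at -0.55, Ugp2 at -0.46, Eno3 at -0.44 and Pkm at -0.40 (limma adjusted p = 0.969 for each). A further 6 genes moved by over 0.1 against the fit on all arrays: Hk1 to -0.22, Pfkfb3 to -0.23, Pfkp to -0.25, Pygm to -0.33, Pygb to -0.04 and Tbc1d4 to 0.19. On the RictoraP2KO arrays kept, replicates 1, 3 and 4, the mean of the 13 cardiac muscle markers stood at -0.94, -0.45 and -0.02. On the controls kept, replicates 1 and 4, that mean stood at 0.28 and 0.05. The part of cardiac muscle in these differences was not tested.

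The precision of the 31 differences was uneven. Half-widths of the 95% intervals ran from 0.12 for Gapdh to 0.77 for Pygm, with a median of 0.27. For 24 genes the interval lay wholly within a 1.5-fold difference in either direction, and for all 31 within a 2-fold difference. The 7 genes whose interval reached past 1.5-fold were Pfkl, Pfkm, Pfkp, Eno3, Pdk1, Pygl and Pygm. For 9 genes the interval lay within a 1.2-fold difference, among them Pdk4 and Gys1. These intervals come from the same fit and are not adjusted for the number of genes.

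**Figure D2:**
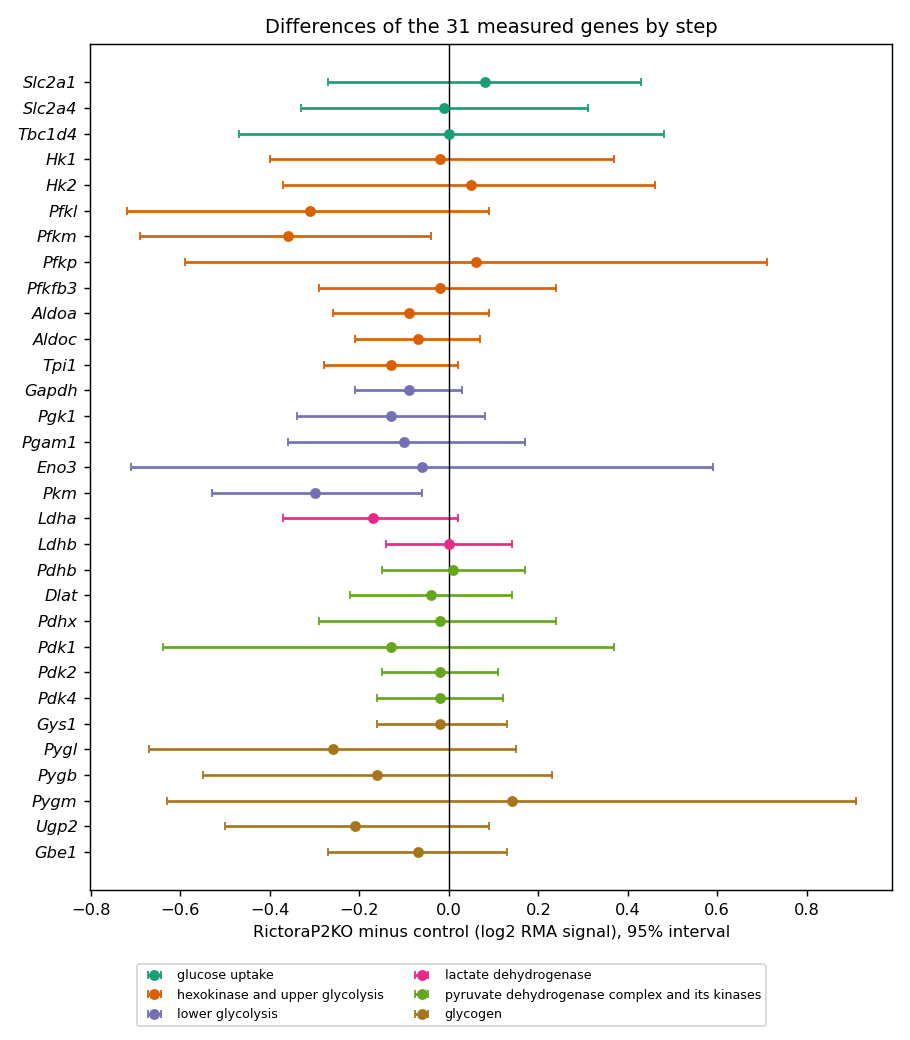
Difference between RictoraP2KO and control on the log2 scale for each gene, in the order of the pathway and coloured by step; bars are 95% intervals of the limma fit with 4 arrays per group. Most points lie left of 0, and the intervals of Pkm and Pfkm are the only ones that leave out 0.

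The 3 genes of glucose uptake were at like levels in both groups. Slc2a4, which encodes the insulin-responsive carrier GLUT4, read 9.09, 8.82, 9.01 and 9.03 on RictoraP2KO replicates 1 to 4 and 8.78, 8.71, 9.13 and 9.36 on control replicates 1 to 4. The RictoraP2KO arrays all fell inside the range of the controls, and the difference was -0.01 (SE 0.142; limma adjusted p = 0.993), with a 95% interval from -0.33 to 0.31. Slc2a1, which encodes the basal carrier GLUT1, read 6.17, 6.17, 5.81 and 6.39 against 5.78, 5.88, 6.25 and 6.31, a difference of 0.08 (SE 0.154). Tbc1d4, the gene of the Akt substrate AS160, differed by 0.002 (SE 0.21). Its lowest value, 6.73, was on RictoraP2KO replicate 2 and its highest, 7.61, on RictoraP2KO replicate 1, so the spread lay within the group and not between the groups.

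Of the hexokinases, which phosphorylate glucose on entry, neither differed. Hk2, the insulin-regulated isoform of muscle and fat, averaged 7.82 ± 0.37 (SD, n = 4) in RictoraP2KO and 7.77 ± 0.22 (SD, n = 4) in control, a difference of 0.05 (SE 0.184). Hk1, the widely expressed isoform, averaged 5.95 ± 0.16 in RictoraP2KO and 5.97 ± 0.36 in control (SD, n = 4) and differed by -0.02 (SE 0.169). The highest Hk1 value, 6.45, was on control replicate 1 and the lowest, 5.63, on control replicate 2.

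Phosphofructokinase, which commits sugar to glycolysis, is built from the muscle, liver and platelet subunits encoded by Pfkm, Pfkl and Pfkp. Pfkm (probe set 10426557) read 7.08, 6.40, 6.95 and 6.72 on RictoraP2KO replicates 1 to 4 and 7.04, 7.19, 7.02 and 7.33 on control replicates 1 to 4. The 3 lower RictoraP2KO arrays lay below every control array, and replicate 1 lay among the controls. The difference was -0.36 (SE 0.143), with a limma p of 0.0333 that rose to 0.668 after adjustment. The lowest reading was on the array with skeletal muscle signal, and without that array the difference was -0.23. Pfkl read 7.99, 8.08, 8.43 and 8.28 against 8.96, 8.40, 8.07 and 8.60, a difference of -0.31 (SE 0.179; limma adjusted p = 0.754). Control replicates 2 and 3 lay within the range of the RictoraP2KO arrays, and control replicate 1 stood highest. Leaving out control replicate 3 moved the difference to -0.46 and leaving out control replicate 1 to -0.16.

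Pfkp did not follow the other subunits. Its signal was 6.84, 8.24, 7.16 and 7.03 on RictoraP2KO replicates 1 to 4 and 7.56, 7.10, 7.40 and 6.96 on the controls. RictoraP2KO replicate 2 alone stood above all controls, and with it the difference was 0.06 (SE 0.286), without it -0.25. On that array skeletal muscle markers (1.02), cardiac muscle markers (1.23) and lymph node markers (0.75) were all at their highest; their part in the Pfkp reading was not tested. Pfkfb3, whose product makes the activator of phosphofructokinase, differed by -0.02 (SE 0.117), and by -0.23 without the 3 arrays with signal of another tissue.

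The next enzymes cleave the sugar into triose phosphates and interconvert them. Aldoa, the main aldolase of muscle and most tissues, averaged 11.45 ± 0.14 in RictoraP2KO and 11.54 ± 0.05 in control (SD, n = 4) and differed by -0.09 (SE 0.0764), or by -0.02 without RictoraP2KO replicate 1. Aldoc, the aldolase of brain, stayed between 2.82 and 3.07 on all arrays, below the array median of 3.76, and differed by -0.07 (SE 0.0617). Tpi1, triose phosphate isomerase, read 8.98, 9.08, 9.12 and 8.98 against 9.16, 9.18, 9.28 and 9.08. The groups met at 9.08 and overlapped by RictoraP2KO replicates 2 and 3 and control replicate 4, and the difference was -0.13 (SE 0.0656; limma adjusted p = 0.725). Its other probe set differed by -0.18.

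In lower glycolysis all 5 measured genes lay below 0, with a median of -0.10. Pkm, pyruvate kinase of muscle and most other tissues (probe set 10585932), had the smallest p of the list, counting the 1 probe set used per gene. It read 9.63, 9.64, 9.93 and 9.74 on RictoraP2KO replicates 1 to 4 and 10.22, 9.98, 9.82 and 10.11 on control replicates 1 to 4. The groups overlapped only by RictoraP2KO replicate 3 and control replicate 3. The difference was -0.30 (SE 0.104), with a 95% interval from -0.53 to -0.06 and a limma p of 0.0186 that became 0.655 after adjustment. A separate probe set of Pkm differed by -0.27, and over the omissions of 1 array the difference of Pkm ran from -0.37 to -0.24. The M1 and M2 splice forms of this gene were not separated.

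Gapdh, the triose phosphate dehydrogenase that many studies use as a reference transcript, read 11.98, 12.03, 12.04 and 12.10 against 12.13, 12.10, 12.12 and 12.15. RictoraP2KO replicate 4 met the lowest control at 12.10, and the difference was -0.09 (SE 0.0519; limma adjusted p = 0.767). The annotation gives Gapdh alone 17 probe sets and a further 24 together with other genes. All 17 lay below 0, between -0.17 and -0.03, and 3 had no overlap between the groups, where 2.17% of all probe sets did so in that direction. By limma, 2 of the 17 had an unadjusted p under 0.05, against 3.42% of all probe sets in that direction. The smallest was 0.00962, or 0.651 after adjustment. The 17 are not independent measurements: only 16 of them hold distinct values, and mouse Gapdh has many near-identical retrocopies. Pgk1, phosphoglycerate kinase, differed by -0.13 (SE 0.0926) and Pgam1, phosphoglycerate mutase, by -0.10 (SE 0.116). Both have 3 probe sets with 2 distinct sets of values, and all of these differences lay below 0. Whether probe sets of Pgk1 and Pgam1 also read retrocopies was not examined. Without control replicate 1 the difference of Pgam1 was -0.0035.

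Ldha and Ldhb encode the muscle and heart subunits of lactate dehydrogenase. Ldha read 10.86, 10.85, 11.16 and 11.14 on RictoraP2KO replicates 1 to 4 and 11.14, 11.18, 11.22 and 11.16 on the controls. RictoraP2KO replicates 1 and 2 were lower than all controls, while replicates 3 and 4 lay within the control range. The difference of Ldha was -0.17 (SE 0.0857; limma adjusted p = 0.726). Ldhb averaged 9.94 in both groups, and its difference of -0.00075 had a 95% interval from -0.14 to 0.14. A separate probe set of Ldhb differed by -0.10 (limma adjusted p = 0.799). Whether either probe set of Ldhb reads a retrocopy was not examined.

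**Figure D3:**
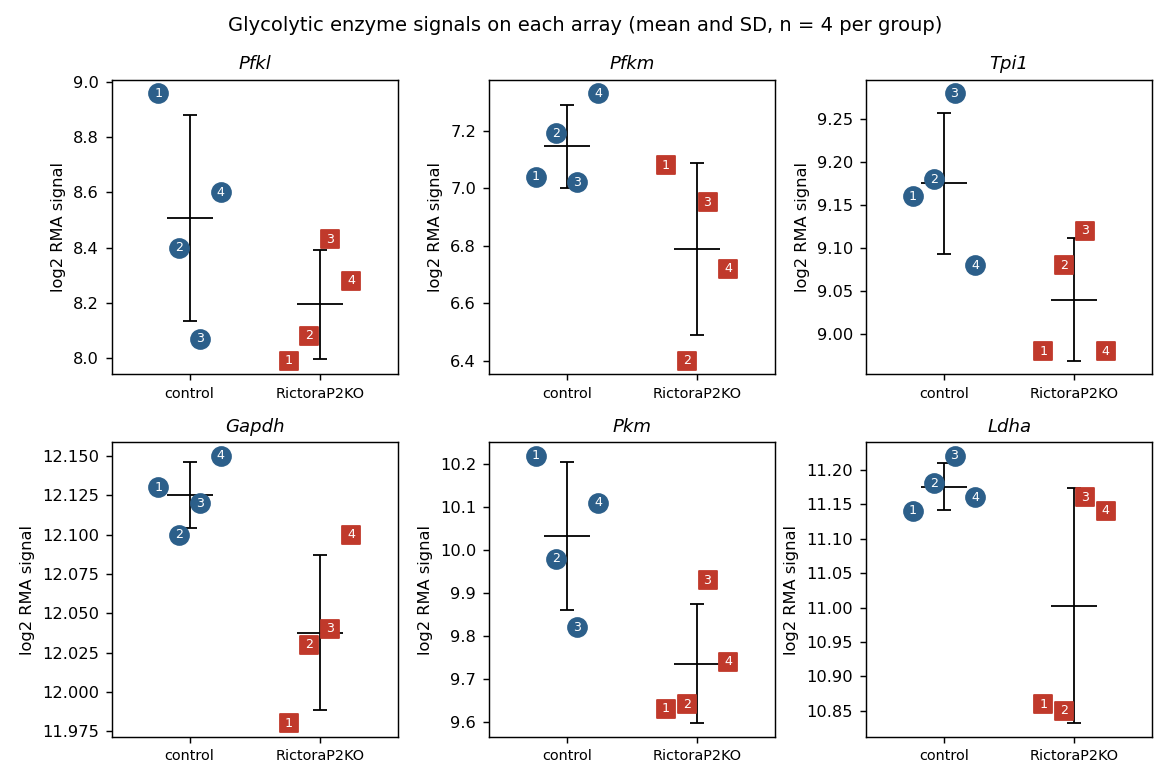
Log2 RMA signal of 6 glycolytic genes on each array, with the replicate number inside each point and the mean and SD of 4 arrays as a line with bars; each panel has its own scale, which does not start at 0. For Pkm, RictoraP2KO lies between 9.63 and 9.93 and control between 9.82 and 10.22, and every panel shows some overlap or contact of the groups.

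The genes that govern the fate of pyruvate stood close together in the groups. Pdk4, the pyruvate dehydrogenase kinase that fasting induces, read 11.50, 11.65, 11.59 and 11.45 on RictoraP2KO replicates 1 to 4 and 11.60, 11.59, 11.51 and 11.56 on control replicates 1 to 4. Both groups spanned nearly the same values, and the difference was -0.02 (SE 0.062; limma adjusted p = 0.97), with a 95% interval from -0.16 to 0.12. Pdk4 is also a target that FOXO factors switch on when Akt is inactive. Pdk2, the most widely expressed of these kinases, differed by -0.02 (SE 0.058). Pdk1, the kinase that low oxygen induces, was more scattered, from 6.80 to 7.63 in RictoraP2KO and from 6.88 to 7.70 in control, and differed by -0.13 (SE 0.223). Its 2 lowest values were on RictoraP2KO replicate 2 and control replicate 3, arrays with signal of another tissue. Its highest value, 7.70, was on control replicate 2, which also carried such signal.

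Subunits of the pyruvate dehydrogenase complex itself differed less than their spread. Pdhb, the beta subunit of its first enzyme, differed by 0.01 (SE 0.0708), and Dlat, its acetyltransferase core, by -0.04 (SE 0.0797). Pdhx, the protein that binds the third enzyme to the core, differed by -0.02 (SE 0.117). RictoraP2KO replicate 1 read 7.04 for Pdhx, and the other RictoraP2KO arrays lay between 7.43 and 7.47.

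Among the genes of glycogen, Gys1, the glycogen synthase of muscle and fat, was the most alike in the groups. It read 9.34, 9.24, 9.30 and 9.39 in RictoraP2KO and 9.25, 9.31, 9.46 and 9.32 in control, and differed by -0.02 (SE 0.0646), with a 95% interval from -0.16 to 0.13. Ugp2, which makes the UDP-glucose that the synthase uses, read 8.14, 8.34, 8.11 and 8.32 against 8.76, 8.23, 8.21 and 8.54. Control replicates 1 and 4 were above all RictoraP2KO arrays and control replicates 2 and 3 among them, and the difference was -0.21 (SE 0.129; limma adjusted p = 0.769). Control replicates 2 and 3 are those with lung and neuron signal. Gbe1, the branching enzyme, differed by -0.07 (SE 0.0881), and by -0.0019 without RictoraP2KO replicate 2, the array with muscle signal.

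Glycogen phosphorylase, which releases glucose from glycogen, has liver, brain and muscle isoforms. Pygl, the liver form, averaged 8.92 ± 0.33 in RictoraP2KO and 9.17 ± 0.27 in control (SD, n = 4) and differed by -0.26 (SE 0.181), or by -0.11 without RictoraP2KO replicate 2. Pygb, the brain form, differed by -0.16 (SE 0.173), and by -0.02 without the same array. Both forms were at their lowest on that array, at 8.49 and 6.99. Pygm, the muscle form, read 4.30, 5.96, 4.38 and 4.83 on RictoraP2KO replicates 1 to 4 and 4.86, 4.94, 4.30 and 4.81 on the controls. The reading of RictoraP2KO replicate 2 exceeded all the others by more than the whole range of the controls. With that array the difference of Pygm was 0.14 (SE 0.34) and without it -0.22.

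Eno3, the enolase of muscle, was spread in the same manner. It read 5.90, 7.11, 6.11 and 6.40 in RictoraP2KO and 6.53, 6.81, 5.81 and 6.62 in control, a difference of -0.06 (SE 0.287), or -0.30 without RictoraP2KO replicate 2. Its 2 highest arrays, RictoraP2KO replicate 2 and control replicate 2, were also the highest for the mean of 13 cardiac muscle markers, at 1.23 and 0.50. Its 2 lowest arrays, control replicate 3 and RictoraP2KO replicate 1, were the lowest for those markers, at -0.65 and -0.94. Among the 23 skeletal muscle markers, 10 stayed below the array median on every array, and Myh4, the fast myosin, read 4.94 on RictoraP2KO replicate 2 and between 2.11 and 2.37 elsewhere. The part of muscle in the Pygm and Eno3 values was not tested.

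**Figure D4:**
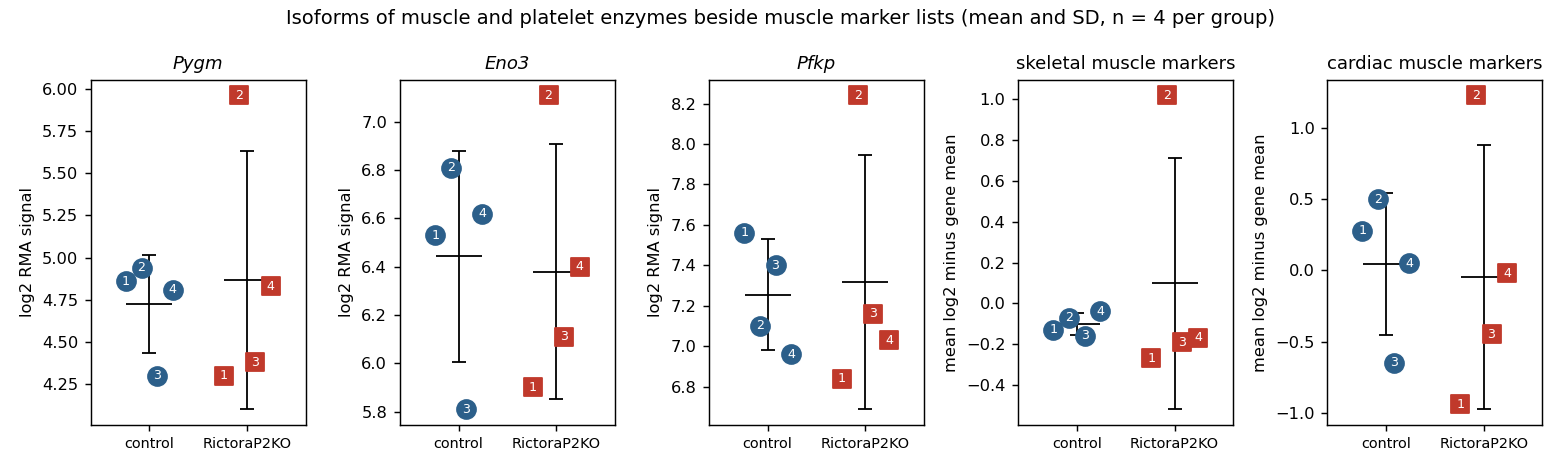
Log2 signal of Pygm, Eno3 and Pfkp on each array, beside the mean of skeletal and cardiac muscle markers relative to each gene's mean over the 8 arrays; replicate numbers are inside the points, and lines with bars are the mean and SD of 4 arrays. RictoraP2KO replicate 2 is the highest point in all 5 panels, with 5.96 for Pygm and 1.02 for the skeletal muscle markers.

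Isoforms of 1 step were also set against each other within each array, since a shift from one isoform to another would show as a change of their log2 difference. Of 12 pairs chosen, 10 could be measured. None passed (exact two-sided permutation test, smallest p = 0.343, or 0.984 after Benjamini-Hochberg adjustment over the 10 pairs). A test of 4 against 4 arrays cannot give a p below 0.0286, which for a single pair would become 0.286 after adjustment, so the test could hardly pass a pair. For hexokinase, Hk2 minus Hk1 averaged 1.87 ± 0.48 in RictoraP2KO and 1.81 ± 0.49 in control (SD, n = 4). For pyruvate dehydrogenase kinase, Pdk4 minus Pdk2 averaged 1.52 ± 0.15 against 1.52 ± 0.06 (SD, n = 4). These contrasts carry the probe effects of both genes and say nothing of which isoform is more abundant.

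Ldhb minus Ldha, with Ldhb read only on its probe set of highest mean, had the smallest p of the pairs. It read -0.92, -0.80, -1.29 and -1.22 on RictoraP2KO replicates 1 to 4 and -1.28, -1.17, -1.27 and -1.20 on control replicates 1 to 4. RictoraP2KO replicates 1 and 2 stood above all controls and replicates 3 and 4 did not. Pfkp minus Pfkl differed by 0.38 and Pygm minus Pygb by 0.30, and in both the highest value, 0.16 and -1.03, was on RictoraP2KO replicate 2. Without that array the former differed by 0.03 and the latter by -0.20. Slc2a4 minus Slc2a1 differed by -0.09, Pfkm minus Pfkl by -0.05 and Pygl minus Pygb by -0.10.

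**Figure D5:**
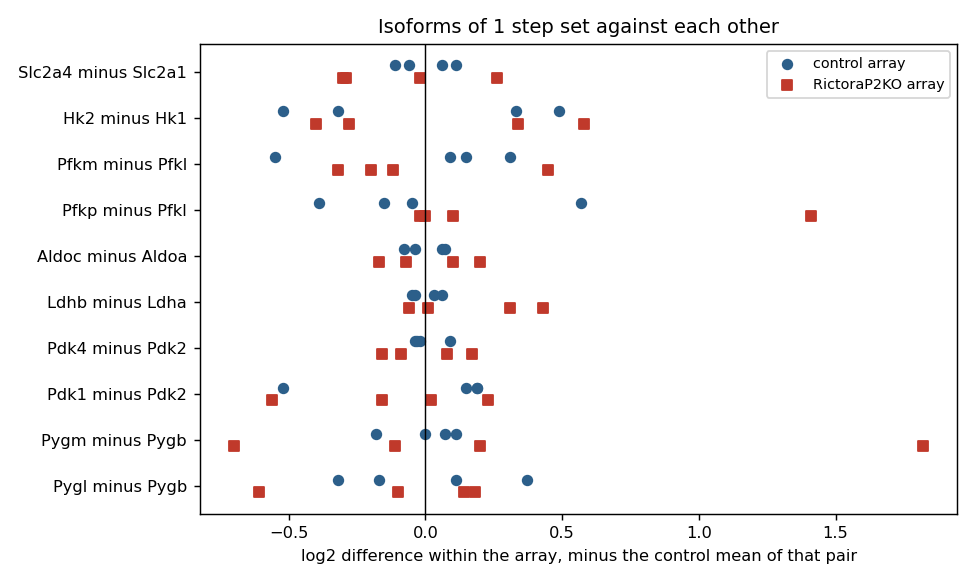
Log2 difference of 2 isoforms of a step within each array, minus the mean of the 4 control arrays for that pair; circles are control arrays and squares RictoraP2KO arrays. Circles and squares overlap in all 10 pairs, and the highest squares of the Pfkp and Pygm pairs, at 0.16 and -1.03 before the control mean is taken off, belong to RictoraP2KO replicate 2.

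Some genes of the list varied together among arrays of a group. Over the 8 arrays, after the group means were removed, Tbc1d4 and Pfkm had the highest Pearson correlation of the 465 gene pairs, 0.966, followed by Pfkl and Pkm at 0.96 and by Pygl and Gbe1 at 0.941. Pfkm and Pfkp ran in opposite directions, at -0.899. These are descriptions of arrays that share tissue of varying make-up, and the median over all pairs was 0.0236. The pairs named were picked from the ends of the 465 on these same 8 arrays, so omissions do not test them independently. With 1 array left out, the value for Pfkl and Pkm stayed between 0.934 and 0.988, and that for Pfkm and Pfkp between -0.987 and -0.723. By the same measure the genes of the whole array most like Pkm were Slc2a5, the fructose carrier GLUT5, at 0.987, Tdrd6 at 0.986 and Mir217 at 0.975. These are the highest values of a search over all genes on 8 arrays, and whether they exceed chance was not tested.

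The 250 bases before the most upstream RefSeq start are shown for Pkm and Pfkm, the genes with the smallest p, and for Pfkl, which varied with Pkm. They are read 5′ to 3′ on the strand of the gene from GRCm38.p6. Capitals mark ACGTG or GCGTG on either strand, the core of the binding site of hypoxia-inducible factor; where ACGTG is part of CACGTG, the E-box that clock factors and carbohydrate response factors bind, all 6 letters are in capitals. The Pkm window is chr9:59656326-59656575, plus strand, the Pfkl window chr10:78009808-78010057, minus strand, and the Pfkm window chr15:98092339-98092588, plus strand.
Pkm: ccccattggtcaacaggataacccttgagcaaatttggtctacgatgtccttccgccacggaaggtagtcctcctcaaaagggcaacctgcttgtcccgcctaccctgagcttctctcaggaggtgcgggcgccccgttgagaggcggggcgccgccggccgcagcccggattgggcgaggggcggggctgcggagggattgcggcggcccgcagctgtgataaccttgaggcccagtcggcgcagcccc
Pfkl: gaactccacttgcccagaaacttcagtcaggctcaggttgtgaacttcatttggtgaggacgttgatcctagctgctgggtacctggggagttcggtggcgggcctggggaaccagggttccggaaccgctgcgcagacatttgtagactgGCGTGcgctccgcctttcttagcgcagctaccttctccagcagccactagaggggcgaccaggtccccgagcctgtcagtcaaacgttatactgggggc
Pfkm: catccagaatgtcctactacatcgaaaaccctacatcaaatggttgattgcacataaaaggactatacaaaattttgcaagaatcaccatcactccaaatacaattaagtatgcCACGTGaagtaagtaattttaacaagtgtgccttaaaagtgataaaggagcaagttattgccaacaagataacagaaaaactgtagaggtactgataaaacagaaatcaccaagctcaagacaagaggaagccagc

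The windows differ in these letters. That of Pkm holds neither motif, that of Pfkl holds GCGTG and that of Pfkm holds CACGTG. This holds only for the most upstream starts. The window before a later start of Pkm held ACGTG on the other strand, and the windows before later starts of Pfkm held no CACGTG. Of the 31 genes, 30 had a promoter in RefSeq; the other is Slc2a4. Before at least 1 of their starts, 25 of the 30 genes, or 83.3%, held ACGTG or GCGTG on either strand, against 41.5% of all genes with a promoter in the table. CACGTG, which contains ACGTG, was found in 4 of the 30, or 13.3%, against 6.86% of all genes. Base composition and number of starts per gene were not matched, and a match in letters is not evidence of binding.

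Neighbouring genes of the pathway were read on lists of other carriers, enzymes and regulators. Of 10 other genes of glucose transport, 17 of glycolysis, 11 of pyruvate handling and 20 of glycogen, 0 passed the test by limma. Below 0 lay 6, 9, 5 and 15 of them, against 51.3% of all probe sets, and whether these lists differed from the main list was not tested. At an unadjusted p under 0.05 there were 0, 2, 0 and 1 of them, all 3 lower in RictoraP2KO, where 3.42% of all probe sets were lower and 3.85% higher at that level, so the count was near the background. Ldhd, a mitochondrial dehydrogenase of D-lactate, read 7.25, 7.21, 7.54 and 7.44 against 7.85, 7.65, 7.63 and 7.62. Every RictoraP2KO array lay below every control array for Ldhd, as also for Slc2a8 and Ppp1r3e, where 2.17% of all probe sets separated in that direction. For Slc2a8 the highest RictoraP2KO array and the lowest control array both read 4.96 after rounding. The difference of Ldhd was -0.33 (SE 0.0913, limma adjusted p = 0.649). Pfkfb4, a bifunctional enzyme that sets fructose-2,6-bisphosphate, differed by -0.26 (SE 0.112) around the array median, and Ppp1r3e, which targets a phosphatase to glycogen, by -0.19 (SE 0.0709). Ldhc, the lactate dehydrogenase of testis, differed by -0.16 at levels well below the array median. Among carriers, Slc2a12 differed by -0.41 (SE 0.204) around the array median, Slc2a8 by -0.15 and Slc2a13 by -0.07. The highest and lowest Slc2a12 values, 4.58 and 3.42, were on control replicates 2 and 1. Control replicate 2 carried lung signal. In the pyruvate list Slc16a3, the lactate exporter MCT4, differed by 0.18 (SE 0.109), the phosphatase gene Pdp1 by 0.10 and Pdpr, the regulator of that phosphatase, by 0.08. Phkb, a subunit of phosphorylase kinase, differed by -0.25 (SE 0.114) and Pgm1, phosphoglucomutase, by -0.17 (SE 0.0812).

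In branches off glycolysis the test called nothing either. Of 10 genes of the pentose phosphate pathway and 10 of gluconeogenesis and glycerol handling, 0 passed by limma and 0 had an unadjusted p under 0.05. Tkt, transketolase, differed by -0.37 (SE 0.22), Taldo1, transaldolase, by -0.18 and Tktl1 by -0.12. The lowest Tkt value, 8.46, was on RictoraP2KO replicate 2, the array with muscle signal. G6pc3, a glucose-6-phosphatase, differed by -0.17, its transporter gene Slc37a4 by -0.20 and Fbp1, fructose bisphosphatase, by 0.34 (SE 0.247). Of 16 targets or members of the hypoxia response outside glycolysis, 0 passed by limma. At an unadjusted p under 0.05 there were 2 lower and 1 higher, against 3.42% and 3.85% of all probe sets. P4ha2, a collagen prolyl hydroxylase, differed by -0.33 (SE 0.114) and Epas1, which encodes HIF-2 alpha, by -0.17 (SE 0.0608). Adm, the vasodilator adrenomedullin, differed by 0.51 (SE 0.192), in the opposite direction. Limma adjusted p for the 3 were 0.655, 0.66 and 0.668.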

How the data were processed

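Total RNA (5 µg per sample) was labelled and hybridised to Affymetrix arrays, 1 per sample, per the labels' protocols. The deposited log2 values, 28371 probe sets by 8 arrays, were made by the authors: the submitters' processing notes name RMA and Affymetrix Power Tools, version 1.10.2. A genome build was not given in the sources used here. RMA normalises arrays to a common distribution, so a change in total RNA output would not be seen. The values ran from 1.04 to 12.5, and arrays correlated between 0.989 and 0.995. Gene symbols came from GEO's annotation of the platform; 21158 probe sets had 1 symbol, 1881 several and 5332 none. RictoraP2KO was compared with control in R 4.3.3 with limma 3.58.1, using two-sided moderated tests from eBayes on all probe sets, without a covariate, and p-values were adjusted over every probe set by the Benjamini-Hochberg method; the fit was tested on simulated data. Isoform pairs were compared by exact permutation over 70 assignments (scipy 1.17.1). All measured genes of the list are named; of other lists, up to 3 by smallest p, and of marker lists those of highest signal. Myh4 and Lep were named after their values were seen. Members, lists and tests were chosen with earlier results of these data known. Same-numbered arrays correlated between -0.154 and 0.087 in their deviations from the group means, so numbers were not taken as pairs. Alternatives were a filter on dim probe sets, renormalisation, centring, limma-trend, robust eBayes, array weights, a replicate block, each array left out, probe set means, other thresholds and, added after seeing the data, omission of 3 arrays. Precision is limited by there being 4 arrays a group, and scanner files were not used here.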

Additional observations from a re-analysis of the deposited data

Results flagged for a closer look

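A total of 76 sets of 4 arrays were examined, 62 for genes of the list and 14 for marker lists, for an array far from the other 3 of its group, which chance gives in about 5% of sets. In 5 sets an array stood apart. Among the genes of the list this was so for Pdhx, which binds a subunit to the pyruvate dehydrogenase core, with 7.04 on RictoraP2KO replicate 1 against 7.43 to 7.47 on the other RictoraP2KO arrays. The skeletal muscle markers stood at 1.02 on RictoraP2KO replicate 2 against -0.27 to -0.17, and the adipocyte markers at 0.22 on RictoraP2KO replicate 1 against -0.05 to -0.01. The adipocyte value rested on Lep alone, and without it the other 10 markers stood at 0.01 against -0.01 to 0.02. The lung epithelial markers stood at 2.40 on control replicate 2 against -0.46 to -0.34, and the neuron markers at 1.15 on control replicate 3 against -0.21 to -0.08. Without the highest gene of each list, chosen after seeing the data, the muscle, lung and neuron means were 0.96, 2.03 and 1.02.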

How the results depend on the processing

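No gene of the list passed the adjusted threshold in any of the 18 alternative fits. The isoform pairs also gave 0 in every setting, but with so few arrays the exact test could hardly give another count, so this says nothing of stability. The median difference of the list moved by less than the spread between arrays in each fit. The 14 genes whose sign held in every fit all lay below 0. They include Pkm, Pfkm, Pfkl, Ldha, Tpi1 and Gapdh. Limma-trend, robust eBayes and the replicate block leave each difference as it was. In those fits neither a sign nor the median could change. The count over all probe sets was 0 without dim probe sets, with the replicate block and without the 3 arrays with signal of another tissue, and ran from 0 to 5 when 1 array was left out, with 5 without RictoraP2KO replicate 1. The count of list genes with an unadjusted p under 0.05 was 4 with limma-trend, 0 with the replicate block, 4 without the 3 arrays, and 1 to 3 when 1 array was left out. Pkm lost that p without RictoraP2KO replicate 1 or control replicate 1, and Pfkm without RictoraP2KO replicate 2 or 4 or control replicate 2 or 4. Numbers were not taken as pairs; each RictoraP2KO array correlated best with a control of another number. The sign turned for 17 genes, and the cause was not tested. With array weights Slc2a4 was at 0.0087, Hk1 at 0.011 and Pdhx at 0.0082. Without the 3 arrays Hk2 was at -0.032, Pfkp at -0.25, Pdhb at -0.040, Pdk2 at 0.021, Gys1 at 0.057 and Pygm at -0.33. With 1 array left out, differences ran from -0.012 to 0.19 for Slc2a1, -0.11 to 0.11 for Slc2a4, -0.12 to 0.17 for Tbc1d4, -0.13 to 0.14 for Hk1, -0.11 to 0.18 for Hk2, -0.25 to 0.22 for Pfkp, -0.11 to 0.046 for Pfkfb3, -0.30 to 0.098 for Eno3 and -0.036 to 0.025 for Ldhb. They ran from -0.024 to 0.045 for Pdhb, -0.078 to 0.020 for Dlat, -0.090 to 0.079 for Pdhx, -0.32 to 0.040 for Pdk1, -0.038 to 0.0062 for Pdk2, -0.052 to 0.015 for Pdk4, -0.045 to 0.023 for Gys1 and -0.22 to 0.33 for Pygm. A dim probe set, that of Aldoc, had no value under the dim filter. With 4 arrays a group, the intervals given set the precision.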
